A study of Mus musculus with 8 samples.

Results

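The genes described here are the ligands and receptors of the fibroblast growth factor (FGF), platelet-derived growth factor (PDGF) and vascular endothelial growth factor (VEGF) families, with the angiopoietins, in mouse fibroblasts treated with retinoic acid (RA). They were taken from the expression table by gene symbol, whatever their level: every numbered Fgf, Fgfr, Pdgf, Vegf and Angpt symbol of the families, plus Flt1, Flt4, Kdr and Pgf, which gave 45 of the 22200 genes in the table. Of these, 42 encode a member or a receptor of the families, among them 4 intracellular FGFs that are not secreted ligands, and 3 do not. The latter were Fgfr1op, a centrosomal protein gene, Fgfr1op2, and Pdgfrl, whose product resembles a PDGF receptor but has no kinase domain. The older symbol Figf, under which the table lists Vegfd, was outside the symbol rule. Its values are given beside the VEGF ligands because they were seen to differ between the groups, and it is counted in none of the totals.

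These families act through receptor tyrosine kinases, with a secreted ligand that dimerises its receptor at the cell surface and passes a signal to adaptors and kinases inside the cell. Fibroblasts are a known source of FGF7 and FGF10, which act mainly on epithelial cells through a splice form of FGFR2, and they respond themselves to PDGF through PDGFRA and PDGFRB. VEGFs and angiopoietins, in contrast, act chiefly on endothelial cells. RA enters the nucleus and changes transcription through the RAR and RXR receptors.

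All cells were immortalized mouse embryonic fibroblasts of the C57BL/6 background with the genotype label TAF4-/- in every group, TAF4 being a subunit of transcription factor TFIID. The groups were untreated cells at 12 h (n = 3 libraries), cells given RA for 12 h (n = 3) and cells given RA for 72 h (n = 2). For the later group the study's methods give a shorter time, while its results give 72 h as the labels do, and the labels were followed. No untreated cells were taken at 72 h, and RA and time in culture therefore cannot be told apart in any comparison with that group. The cells derive from 1 line, their titles carry cl1, which resembles the study's name for its TAF4-expressing line, and nothing states that replicates were separate cultures, so that the p-values measure only the spread between these samples. In bulk RNA, moreover, fewer cells of a type and less RNA per cell cannot be told apart.

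Values are normalised reads per gene on one common scale, with 1 as its lowest and 165593 as its highest value and a sum of 9442018.6 in every library, since the authors had quantile normalised them. The depth of each library is thereby lost and no counting interval can be given. Within the groups the libraries differed along a shared axis that held 50.1% of the within-group variance, and this axis parted replicate 3 of the untreated group, replicates 1 and 2 of RA 12 h and replicate 1 of RA 72 h from the others. Taf4a, the gene named in the genotype, lay between 984 and 1449 reads in the 8 libraries, where the median gene had 20.75. This level does not show the loss that the label states, and the table does not say which part of the gene the reads came from. For RNA sequencing the study names its TAF4-null C3 line, and it reports that PCR genotyping and western blot verified the loss of TAF4. Here the genotype is given as labelled. Of the 9 fibroblast markers, Col1a1, Col1a2, Col3a1, Vim, Fn1 and S100a4 were tested and Thy1, Lum and Dcn were not above 8 reads in any library.

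Most of the secreted FGF genes were at the bottom of the scale, whereas all PDGF ligand genes, and all VEGF ligand genes but Pgf, lay at 59.8 reads or above in every library. Of the 45 genes, 28 had a mean of at least 10 reads over the 8 libraries and were tested, and 17 were below it, with values between 1 and 14.25 reads. The latter were 13 of 17 secreted FGF genes, the intracellular Fgf11, Fgfr4, Pgf and Kdr. All PDGF ligand and receptor genes, and all 3 angiopoietin genes, were tested. The symbols Fgf21, Vegfd and Angpt3 had no row in the table.

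**Figure D1:**
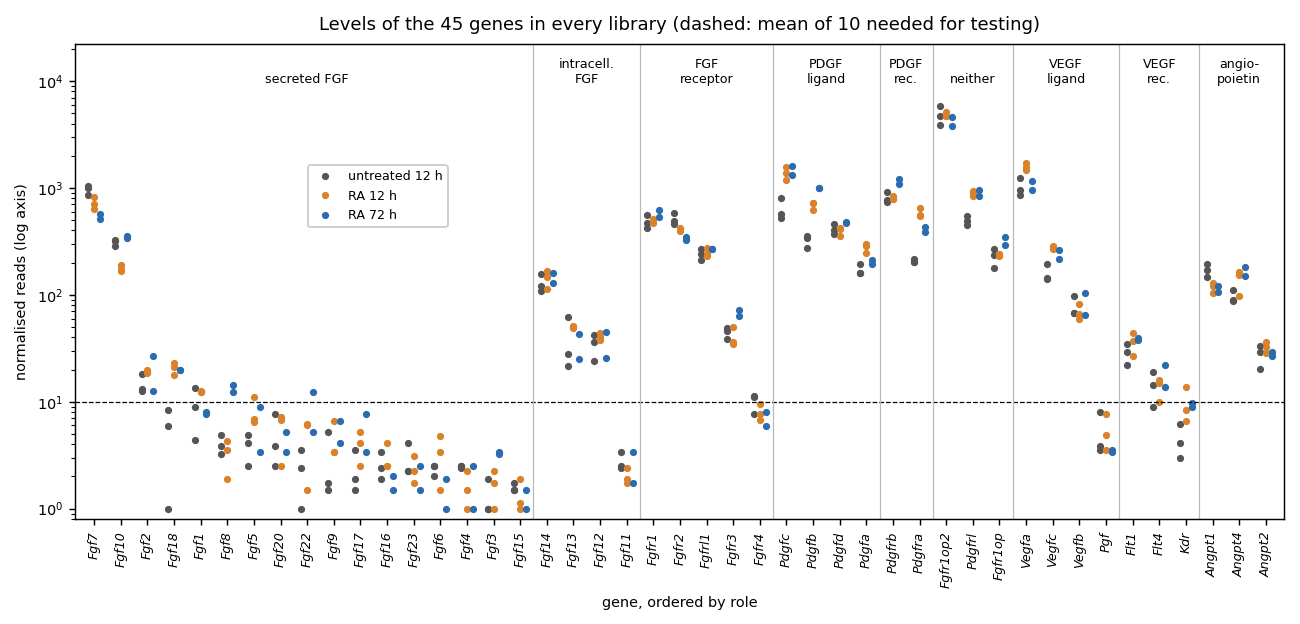
Normalised reads (log axis) of the 45 genes in each of the 8 libraries, ordered by role and coloured by group, with a dashed line at the mean of 10 reads needed for testing. Of the 17 secreted FGF genes, 4 were tested, while all 4 PDGF ligand genes and both PDGF receptor genes were.

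Calls required both a change of at least 2-fold and an adjusted p below 0.05 (limma, Benjamini-Hochberg over all 12673 genes tested). After 12 h of RA, 4 of the 28 tested genes were called higher (Fgf18, Pdgfb, Pdgfc and Pdgfra), against 1.11% of all tested genes. Of the 28, 0 were called lower, where 0.308% of all tested genes were. Figf, outside the symbol rule and not among the 28, was called lower at 12 h (log2 -1.31, adjusted p = 8.54e-06). Fgf18 reached the filter on low values only through its RA libraries, and without it 3 of 27 were called higher at 12 h and 2 of 27 at 72 h. At an unadjusted p below 0.05, 9 of the 28 were higher and 4 lower at 12 h, against 7.96% and 8.33% of all tested genes. By the adjusted p alone, 8 rose and 1 fell, against 2.87% and 1.5% of all tested genes. After 72 h, 3 were called higher (Fgf18, Pdgfb and Pdgfc), against 2.15% of all tested genes, and 0 lower, against 1.52%, with 10 higher and 3 lower at an unadjusted p below 0.05, against 11.5% and 12.4%. By the adjusted p alone 8 rose and 3 fell at 72 h, with 6.08% and 5.41% of all tested genes doing so. Without Fgf18, 7 of the 27 rose by the adjusted p alone at 12 h and 7 at 72 h. The median log2 change of the 28 genes was 0.20 at 12 h and 0.26 at 72 h, while that of all tested genes was -0.02 in both. In all, 14 of the 28 genes, Fgf18 among them, passed the adjusted p in at least 1 of the 3 comparisons. The other 14 passed in none, and of all tested genes 14.2% passed in at least 1.

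**Figure D2:**
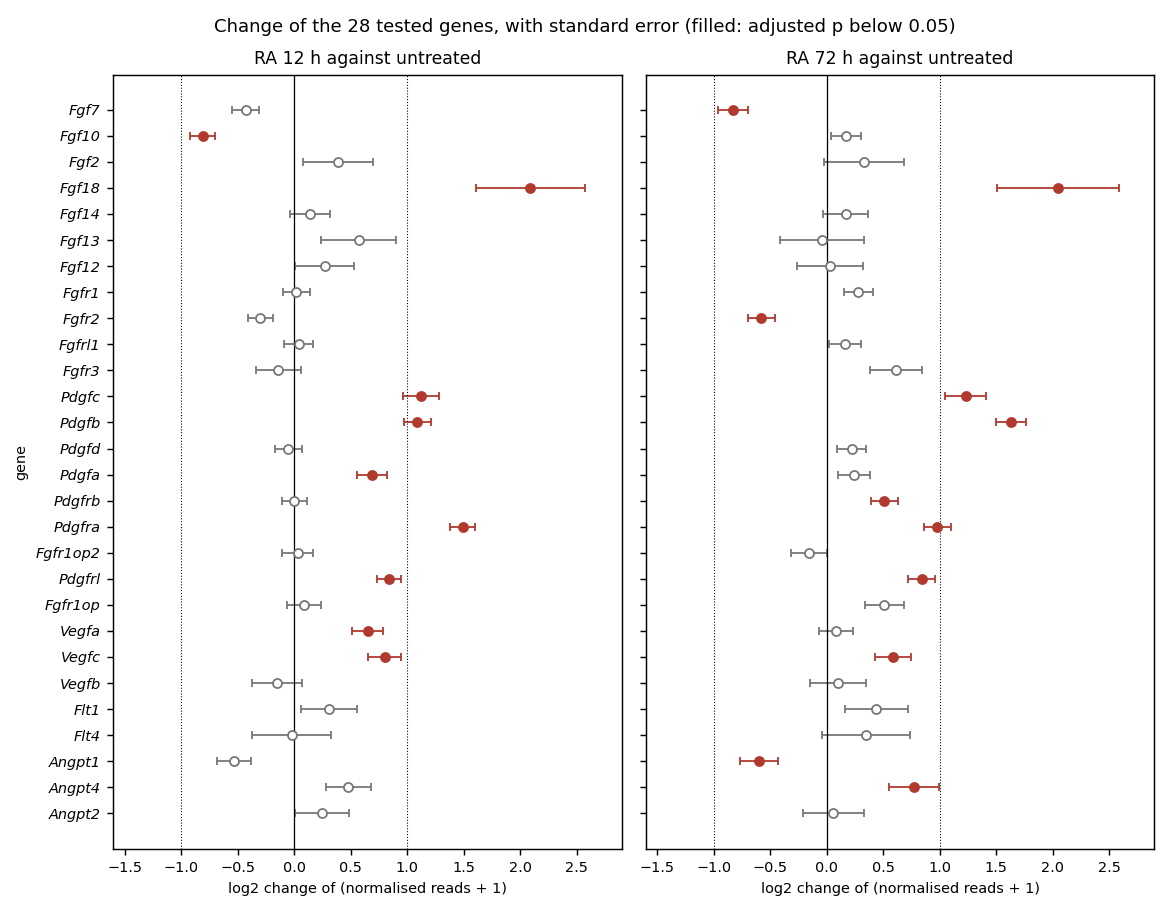
Log2 change of the 28 tested genes after RA for 12 h (left) and 72 h (right) against untreated cells, with the standard error from limma; filled points passed an adjusted p of 0.05 and dotted lines mark a 2-fold change. The PDGF genes Pdgfb, Pdgfc and Pdgfra lie to the right in both panels, while Fgf10 lies at -0.81 at 12 h and 0.17 at 72 h.

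The clearest changes were among the PDGF genes, of which the ligands Pdgfb and Pdgfc and the receptor Pdgfra were up-regulated after 12 h of RA. Pdgfra (chr5:75548316-75594229, mm9, plus strand) encodes the alpha receptor, which binds PDGF-A, PDGF-B and PDGF-C. It stood at 216, 201 and 201.5 reads in untreated cells, at 556, 543 and 644 after 12 h of RA, and at 430 and 385 after 72 h. All RA libraries lay above all untreated libraries, and both 72 h libraries lay below the 12 h libraries. The log2 change was 1.49 ± 0.11 (SE) at 12 h (adjusted p = 2.67e-06, 2.8-fold). At 72 h it was 0.98 ± 0.12 (adjusted p = 0.000173), which is 1.97-fold and thus just short of a call. Without untreated replicate 1 (1.01) or RA 72 h replicate 2 (1.06) it was called. From 12 h to 72 h Pdgfra fell by 0.51 ± 0.12 on the log2 scale (adjusted p = 0.0293). That fall did not pass when any 1 library of either RA group was left out, with adjusted p between 0.0738 without RA 12 h replicate 2 and 0.272 without RA 72 h replicate 2 and log2 changes between -0.59 and -0.43.

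Pdgfb (chr15:79826330-79845238, mm9, minus strand) encodes the ligand of both PDGF receptors. Its level was 339.5, 358 and 274 reads in untreated cells, 627, 718 and 718 at 12 h, and 1006 and 994 at 72 h. The 3 groups did not overlap and followed one order, untreated below RA 12 h below RA 72 h. Pdgfb rose by 1.09 ± 0.12 at 12 h (log2, adjusted p = 6.76e-05) and by 1.63 ± 0.13 at 72 h (3.1-fold, adjusted p = 3.84e-06). Without untreated replicate 3 the change at 12 h was 0.98 and thus under 2-fold. The step from 12 h to 72 h, 0.54 ± 0.13 (adjusted p = 0.0283), did not pass when any 1 of the RA libraries was left out. The adjusted p then lay between 0.0505 (without RA 12 h replicate 3) and 0.167 (without either RA 72 h replicate).

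Pdgfc (chr3:80840338-81017962, mm9, plus strand) encodes a ligand of the alpha receptor that is secreted as a latent form. In untreated cells it stood at 522, 572 and 811 reads, at 12 h at 1556, 1365 and 1178, and at 72 h at 1609 and 1324. Again no RA library reached down to the untreated range, while the 2 RA groups overlapped. The log2 change was 1.12 ± 0.16 at 12 h (adjusted p = 0.000727) and 1.23 ± 0.18 at 72 h (adjusted p = 0.000488), and 0.10 ± 0.18 between the 2 times (adjusted p = 0.826). Without untreated replicate 1 the change at 12 h was 0.99, just under 2-fold, and it was also 0.99 with the side of the shared axis as a term in the fit.

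Pdgfa, whose product binds the alpha receptor alone, rose by less, at 12 h. Its values were 161, 192 and 161 reads in untreated cells, 286, 246 and 297 at 12 h, and 194 and 210 at 72 h. The 12 h libraries lay above both other groups, and the untreated and 72 h ranges were separated by 2 reads. Pdgfa rose by 0.69 ± 0.13 at 12 h (log2, adjusted p = 0.00628), and its change at 72 h was 0.24 ± 0.14 (adjusted p = 0.344). The difference between the RA times, -0.45 ± 0.14, did not pass (adjusted p = 0.094). The remaining ligand gene Pdgfd, whose product binds the beta receptor, had means of 411, 397 and 477 reads and passed in no comparison.

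Pdgfrb (chr18:61204804-61244715, mm9, plus strand) encodes the beta receptor, a gene of mesenchymal and mural cells. It was measured at 765, 914 and 740 reads in untreated cells, at 789, 782 and 839 after 12 h, and at 1083 and 1204 after 72 h. The untreated and 12 h values overlapped throughout, and both 72 h libraries lay above them all. At 12 h the log2 change was 0.00 ± 0.11 (adjusted p = 0.999), and at 72 h Pdgfrb rose by 0.51 ± 0.12 against untreated cells (adjusted p = 0.0132) and by 0.51 ± 0.12 against 12 h (adjusted p = 0.0231). The rise against untreated cells did not pass without untreated replicate 1 (0.47, adjusted p = 0.054), RA 72 h replicate 1 (0.58, adjusted p = 0.0508) or RA 72 h replicate 2 (0.43, adjusted p = 0.137). That against 12 h did not pass without RA 12 h replicate 1 (adjusted p = 0.0869) or 2 (adjusted p = 0.102), or without RA 72 h replicate 1 (adjusted p = 0.0826) or 2 (adjusted p = 0.237). Among 7 pericyte and smooth muscle markers the summed level was 12100 to 14999 reads in untreated cells, 14497 to 15778 at 12 h and 13217 to 13692 at 72 h. Most of that sum was Acta2, with a mean of 13532 reads. At 72 h, Mcam was called higher (log2 1.22, adjusted p = 3.8e-05) and Rgs5 lower (-1.67, adjusted p = 0.00797), while Cspg4 fell at 12 h (-0.78, adjusted p = 0.00681) and at 72 h (-0.58, adjusted p = 0.0387). The part of such cells in the change of Pdgfrb was not tested.

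Pdgfrl is named for its likeness to the PDGF receptors. It stood at 494, 550 and 452 reads in untreated cells, at 836, 903 and 939 at 12 h, and at 832 and 956 at 72 h, so that the 2 RA groups overlapped and neither reached the untreated range. The log2 change was 0.84 ± 0.11 at 12 h (adjusted p = 0.000321) and 0.84 ± 0.12 at 72 h (adjusted p = 0.000479). It passed at both times whichever library was left out.

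Per kilobase of spliced length, the 4 PDGF ligand genes summed to 509 reads in untreated cells, 888 at 12 h and 1014 at 72 h. Pdgfc gave the largest share of that sum in each group, namely 35.4%, 43.7% and 41.1%. The share of Pdgfb was 21.8%, 26.5% and 33.8%, while that of Pdgfd was 26.4%, 14.7% and 15.4%. For the receptors, the level of Pdgfra per kilobase was 0.181 to 0.233 times that of Pdgfrb in the 3 untreated libraries, 0.573 to 0.633 times at 12 h and 0.264 and 0.328 times at 72 h. The alpha receptor gene thus stayed below the beta receptor gene in all 8 libraries, and the 3 groups did not overlap in this ratio. Levels per kilobase assume reads along the whole transcript, as in the study's methods, and would not apply to the tag profiling that the labels describe.

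Because Pdgfra and Pdgfc rose together, the 250 bases before their transcription start are shown, as RefSeq gives them on build GRCm38.p6, which differs from the build of the expression table. The half-sites AGGTCA and AGTTCA of RAR and RXR, the GC box GGGCGG and the TATA box TATAAA were searched on both strands, without overlap between them in the printed windows, and matches are in capitals.
Pdgfra, chr5:75152001-75152250, plus strand: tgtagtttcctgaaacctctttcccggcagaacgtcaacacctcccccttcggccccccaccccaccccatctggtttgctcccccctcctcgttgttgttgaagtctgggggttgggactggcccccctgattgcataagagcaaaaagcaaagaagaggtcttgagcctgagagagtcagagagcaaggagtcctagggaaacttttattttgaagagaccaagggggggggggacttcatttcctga
Pdgfc, chr3:81036166-81036415, plus strand: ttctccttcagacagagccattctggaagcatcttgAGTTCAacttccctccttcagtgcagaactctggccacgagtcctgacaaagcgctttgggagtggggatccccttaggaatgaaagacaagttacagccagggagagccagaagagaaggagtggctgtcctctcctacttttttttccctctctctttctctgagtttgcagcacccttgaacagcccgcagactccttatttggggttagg
The window of Pdgfra held none of these letters, and that of Pdgfc held 1 AGTTCA, 214 to 209 bases before the start. AGTTCA was in 11.8% and AGGTCA in 14% of all 32851 windows of that length, and each was in 4 of the 44 windows of the genes described here (9.09%). Direct repeats of either half-site with 2 bases (NN) or 5 bases (NNNNN) between were in 0.0365% and 0.0335% of all windows and in 0 of the 44, which covered 32 of the 45 genes and Vegfd. A match is a description of the letters and not of a bound site.

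Among the secreted FGF genes, Fgf10 and Fgf7 behaved differently. Fgf10 (chr13:119458598-119580922, mm9, plus strand) was lower at 12 h of RA and, at 72 h, above the untreated range. It was measured at 320, 288 and 325 reads in untreated cells, 174, 167 and 191 at 12 h, and 343 and 356 at 72 h. The 12 h libraries lay below all others, and both 72 h libraries lay above the untreated ones. Fgf10 fell by 0.81 ± 0.11 on the log2 scale at 12 h (0.572-fold, adjusted p = 0.000722), and at 72 h the change against untreated cells was 0.17 ± 0.13 (adjusted p = 0.469). Between 12 h and 72 h it rose by 0.97 ± 0.13 (1.96-fold, adjusted p = 0.000524), which was short of a call by the fold alone. Both changes passed whichever library was left out, and the rise reached 2-fold without RA 12 h replicate 3 (1.03) or without RA 72 h replicate 1 (1.00).

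Fgf7 (chr2:125860394-125916921, mm9, plus strand), which encodes keratinocyte growth factor, was lowest at 72 h. It stood at 855, 1002 and 1047 reads in untreated cells, at 817, 700 and 635 at 12 h, and at 571 and 511 at 72 h. No groups overlapped, in the order untreated, 12 h, 72 h. The change at 12 h was -0.43 ± 0.12 (adjusted p = 0.0641), and at 72 h Fgf7 fell by 0.83 ± 0.13 on the log2 scale (adjusted p = 0.00112). It passed at 72 h whichever library was left out. The change between the RA times was -0.40 ± 0.13 (adjusted p = 0.108).

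Per kilobase, the 17 secreted FGF genes summed to 478 reads in untreated cells, 379 at 12 h and 367 at 72 h. Fgf7 made up 75.7%, 70.9% and 55.2% of that sum, and Fgf10 made up 15.8%, 11.4% and 23.1%. The level of Fgf7 over that of Fgf10 per kilobase was 4.11 to 5.36 in untreated cells, 5.11 to 7.23 at 12 h, and 2.56 and 2.21 at 72 h, when it was lower than in any other library. The window before the start of Fgf10 is shown because Fgf10 fell at 12 h and rose from there to 72 h, with the single match, a GC box on the minus strand 199 to 194 bases before the start, in capitals.
Fgf10, chr13:118714449-118714698, plus strand: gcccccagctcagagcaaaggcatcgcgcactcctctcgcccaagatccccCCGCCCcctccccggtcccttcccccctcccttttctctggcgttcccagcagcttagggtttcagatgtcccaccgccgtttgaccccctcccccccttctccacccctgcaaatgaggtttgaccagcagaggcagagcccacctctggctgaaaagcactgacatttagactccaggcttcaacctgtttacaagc
The GC box was in 32.7% of all 32851 windows and in 30 of the 44 windows of the genes described here (68.2%).

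Fgf18 (chr11:33017430-33047400, mm9, minus strand), a growth factor known from cartilage and bone, was the secreted FGF gene with the largest fold change, but at a low level. It was listed at 5.88, 1 and 8.38 reads in untreated cells, at 23, 17.8 and 21 at 12 h, and at 19.9 in both 72 h libraries. All RA libraries lay above the untreated ones and the RA groups overlapped. Fgf18 passed the filter on low values only through the RA libraries, so that being tested and being high there are not independent. The log2 change was 2.09 ± 0.48 at 12 h (adjusted p = 0.0248) and 2.05 ± 0.54 at 72 h (adjusted p = 0.0253). With a pseudocount of 10 in place of 1 it was 1.05 and 1.02. With no filter on low values neither call held (adjusted p = 0.0676 and 0.0638), nor did that at 12 h with gene-body reads subtracted (2.69, adjusted p = 0.0612) or that at 72 h with only these 2 groups in the fit (adjusted p = 0.0884). Gene-body reads, at the rate described with the intracellular FGFs, would be 63.9% of its untreated mean and 19.7% and 20.8% of its means at 12 h and 72 h. The adjusted p at 12 h was 0.123, 0.0891 and 0.0729 without RA 12 h replicate 1, 2 and 3 (log2 changes of 2.01, 2.19 and 2.07), and at 72 h it was 0.14 and 0.119 without RA 72 h replicate 1 and 2 (2.05 in both).

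Fgf2 was the other tested gene of the class, with means of 14.6, 19.2 and 19.7 reads, and it passed in no comparison. Among the 13 below the filter, Fgf8, a growth factor of early patterning, stood apart at 72 h and is named after its values were seen. It was listed at 3.25, 4.88 and 3.88 reads in untreated cells, 3.5, 4.25 and 1.88 at 12 h, and 12.4 and 14.2 at 72 h, above all others. In a fit with no filter its log2 change at 72 h was 1.53 ± 0.38 against untreated cells (adjusted p = 0.0397) and 1.81 ± 0.38 against 12 h (adjusted p = 0.0305). No other gene below the filter passed in that fit.

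The intracellular FGFs, which are not secreted and bind sodium channels, are encoded by very long genes except for Fgf11. Fgf12, Fgf13 and Fgf14 had group means of 34.2 to 40.6, 33.8 to 50.3 and 129 to 145 reads and passed in no comparison. A rate of reads along gene bodies was taken as the lower quartile of reads per megabase over 650 genes spanning more than 200 kb, and it was 80 to 160 in the 8 libraries. At that rate the spans of Fgf12, Fgf13 and Fgf14 would hold 82.2%, 97.6% and 42.1% of their mean levels, against 0.382% for Pdgfb and 0.928% for Fgf7.

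Of the FGF receptor genes, Fgfr2 fell at 72 h while Fgfr1 did not pass. Fgfr2 encodes, in a splice form, the receptor of FGF7 and FGF10, and values per gene do not tell its splice forms apart. It stood at 460.5, 494 and 577 reads in untreated cells, at 417, 426 and 397 at 12 h, and at 329 and 350.5 at 72 h. The groups did not overlap, in that order. Its log2 change was -0.30 ± 0.11 at 12 h (adjusted p = 0.188), and at 72 h it fell by 0.58 ± 0.12 on the log2 scale (adjusted p = 0.0079). Without RA 72 h replicate 1 the latter was -0.53 with an adjusted p of 0.0923.

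Fgfr1 had means of 483, 489 and 583 reads, with a log2 change of 0.28 ± 0.13 at 72 h (adjusted p = 0.232). Per kilobase, Fgfr2 was above Fgfr1 in untreated cells (121 and 96.9 reads), level with it at 12 h (97.8 and 98) and below it at 72 h (80.4 and 117). Fgfr2 thus made up 52.3%, 47.1% and 37.3% of the 4 kinase receptors. Fgfr3 came next at means of 44.3, 40.6 and 67.8 reads, and its log2 change from 12 h to 72 h was 0.74 ± 0.23 (adjusted p = 0.0788). Fgfrl1, which binds FGFs but has no kinase domain, had means of 241, 248 and 268 reads, and Fgfr4 was at 5.88 to 11.2 reads in the 8 libraries.

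The VEGF ligand genes Vegfa and Vegfc rose at 12 h, whereas Vegfd, listed as Figf, fell, Vegfb did not pass and Pgf was not tested. Vegfa (chr17:46153942-46169326, mm9, minus strand) encodes the main ligand of KDR and FLT1. It was measured at 950, 856 and 1240 reads in untreated cells, at 1705, 1583 and 1455 at 12 h, and at 1158 and 965 at 72 h. The 12 h libraries lay above all others, and the 72 h libraries were within the untreated range. Vegfa rose by 0.65 ± 0.14 at 12 h (log2, adjusted p = 0.0122), its change at 72 h was 0.08 ± 0.15 (adjusted p = 0.813), and between the RA times it fell by 0.58 ± 0.15 on the log2 scale (adjusted p = 0.0404). The rise at 12 h did not pass without untreated replicate 1 (0.61, adjusted p = 0.0747), RA 12 h replicate 1 (0.60, adjusted p = 0.0806) or RA 12 h replicate 2 (0.65, adjusted p = 0.0697). The fall between the times did not pass without untreated replicate 1 (adjusted p = 0.0642) or without any 1 of the RA libraries, with adjusted p between 0.0531 without RA 12 h replicate 3 and 0.339 without RA 72 h replicate 2.

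Vegfc (chr8:55162886-55271808, mm9, plus strand) and Vegfd encode the ligands of FLT4, the receptor of lymphatic endothelium. Vegfc was listed at 141, 144 and 196 reads in untreated cells, at 279, 284 and 267 at 12 h, and at 264 and 215 at 72 h. All RA libraries were above the untreated ones. Vegfc rose by 0.80 ± 0.15 at 12 h (log2, adjusted p = 0.0054), whichever library was left out, and by 0.59 ± 0.16 at 72 h (adjusted p = 0.0339). At 72 h it passed without untreated replicate 3 or RA 12 h replicate 3 only, and otherwise the adjusted p lay between 0.0541 (without RA 72 h replicate 2) and 0.321 (without RA 72 h replicate 1), with log2 changes from 0.44 to 0.73.

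Figf (chrX:160811310-160840582, mm9, plus strand) moved the other way. Its values were 405, 395.5 and 407.5 reads in untreated cells, 158, 160.5 and 168 at 12 h, and 240 and 207.5 at 72 h. The 3 groups did not overlap, with untreated cells highest and 12 h lowest. Figf fell by 1.31 ± 0.11 on the log2 scale at 12 h (0.404-fold, adjusted p = 8.54e-06) and by 0.85 ± 0.13 at 72 h (adjusted p = 0.000561), and the difference between the RA times was 0.46 ± 0.13 (adjusted p = 0.0501). Per kilobase, Vegfc over Figf was 0.38 to 0.524 in untreated cells, 1.73 to 1.93 at 12 h, and 1.2 and 1.13 at 72 h, so that the order of the ligand genes of FLT4 differed between untreated and RA libraries. The window before the start of Vegfd is shown as that of the VEGF ligand gene that was lower, with a match to TATAAA, found in 12.4% of all 32851 windows, in capitals.
Vegfd, chrX:164373272-164373521, plus strand: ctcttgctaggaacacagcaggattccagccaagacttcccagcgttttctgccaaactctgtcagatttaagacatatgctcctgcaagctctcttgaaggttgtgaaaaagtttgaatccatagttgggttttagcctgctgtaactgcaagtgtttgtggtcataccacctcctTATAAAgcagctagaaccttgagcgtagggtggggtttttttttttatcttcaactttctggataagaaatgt

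Vegfb, with means of 77.8, 69.5 and 84.3 reads, passed in no comparison, and Pgf stood at 3.38 to 8 reads. Together with Figf, the VEGF ligand genes summed to 634, 732 and 606 reads per kilobase in the 3 groups, of which Vegfa made up 45.4%, 61.2% and 49.7% and Figf 31%, 10.8% and 18%.

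The VEGF receptor genes, which mark endothelial cells, were low throughout. Flt1 had means of 28.8, 36 and 38.8 reads and Flt4 of 14.1, 13.6 and 17.9, and both passed in no comparison. Kdr was listed at 3 to 13.9 reads and was not tested. The gene-body rate given above would account for 34% of the mean level of Flt1, 37.2% of that of Flt4 and 75.1% of that of Kdr. The 8 endothelial markers summed to between 61.2 and 115 reads in untreated cells, 93.5 and 109 at 12 h and 92 and 112 at 72 h. Of these 4 were tested by limma and 0 passed in any comparison, where 14.2% of all tested genes passed in at least 1. At an unadjusted p below 0.05, 1 was higher at 72 h, against 11.5% of all tested genes. Cldn5 was at 1 to 1.75 reads.

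Of the angiopoietin genes, whose products bind the endothelial receptor TEK, Angpt1 and Angpt4 passed at 72 h in opposite directions. Angpt1, which encodes the activating ligand, stood at 171, 147 and 196 reads in untreated cells, at 130, 120.5 and 103 at 12 h, and at 120 and 105 at 72 h. No RA library reached the untreated range, and the RA groups overlapped. The log2 change was -0.53 ± 0.15 at 12 h (adjusted p = 0.0742), and at 72 h Angpt1 fell by 0.60 ± 0.17 on the log2 scale (adjusted p = 0.0388). That fall passed without untreated replicate 2 or RA 12 h replicate 3 only, and otherwise the adjusted p lay between 0.0509 (without RA 12 h replicate 1) and 0.22 (without RA 72 h replicate 2), with log2 changes from -0.69 to -0.49. Gene-body reads at the rate given above would be 23.5% of its mean level.

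Angpt4 was listed at 112, 90 and 87.4 reads in untreated cells, at 97.2, 164.5 and 152 at 12 h, and at 149 and 180 at 72 h. The 72 h libraries lay above the untreated ones, while RA 12 h replicate 1 lay among them. Its log2 change was 0.48 ± 0.20 at 12 h (adjusted p = 0.233), and it rose by 0.77 ± 0.22 at 72 h (adjusted p = 0.0383). The rise did not pass without untreated replicate 2 (0.72, adjusted p = 0.0901), RA 72 h replicate 1 (0.90, adjusted p = 0.0905) or RA 72 h replicate 2 (0.63, adjusted p = 0.231). Angpt2 had means of 27.5, 32.4 and 28.1 reads and passed in no comparison. Neither did Fgfr1op, with means of 227, 238 and 319 reads, nor Fgfr1op2, with 4790, 4824 and 4234.

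**Figure D3:**
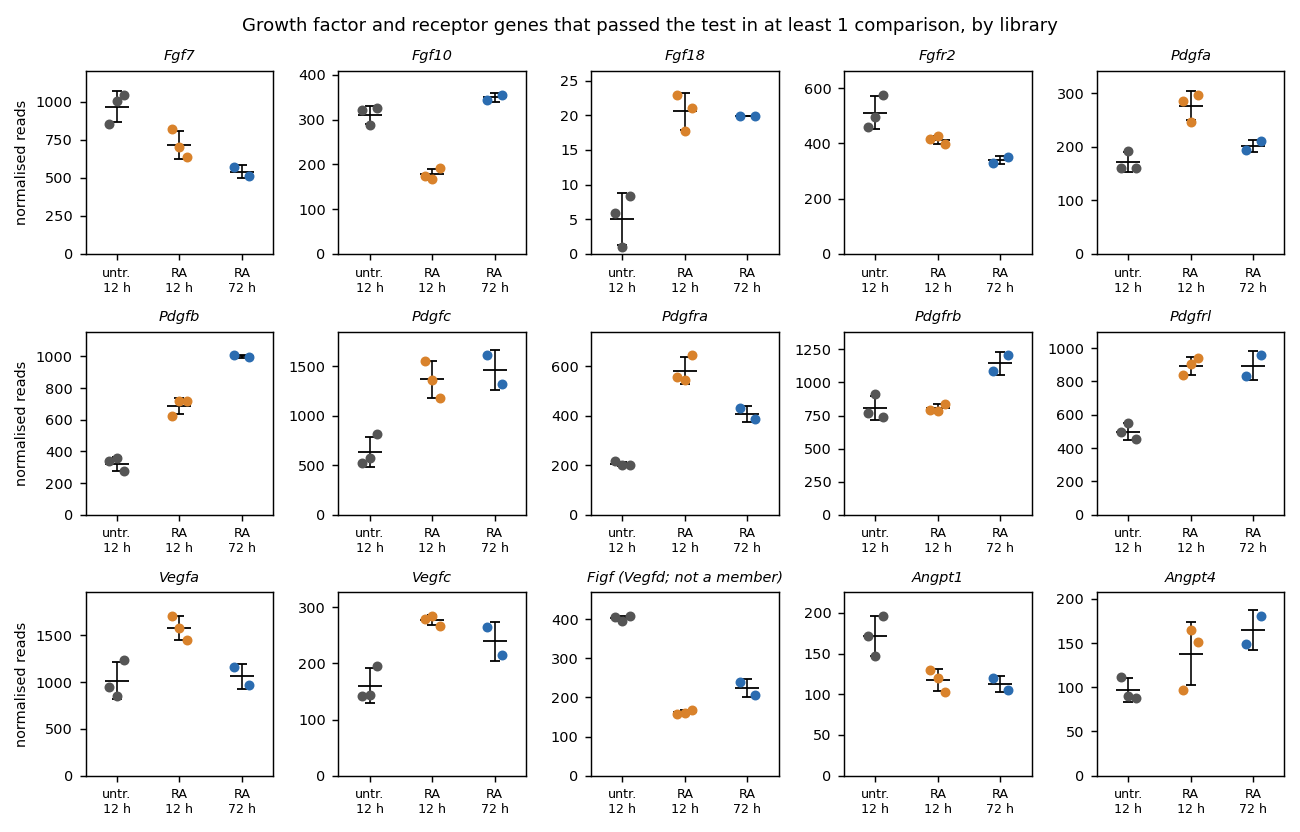
Normalised reads in each library for the 14 genes that passed an adjusted p of 0.05 in at least 1 comparison, and for Figf; points are libraries, the horizontal bar is the group mean and the error bar the SD (n = 3, 3 and 2). Fgf10 is lowest at RA 12 h at 167 to 191 reads, Pdgfb is highest at RA 72 h at 994 and 1006, and Figf lies between 158 and 168 at RA 12 h.

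Between 12 h and 72 h of RA, 0 of the 28 genes were called in either direction, where 0.765% of all tested genes were called higher and 0.734% lower. Using limma's adjusted p alone, Fgf10, Pdgfb and Pdgfrb rose and Pdgfra and Vegfa fell, against 2.92% of all tested genes in each direction, and 5 of the 28 were higher and 5 lower at an unadjusted p below 0.05, against 8.86% and 10% of all tested genes. All comparisons share libraries with another, so that a gene's changes at 12 h and 72 h against untreated cells are not independent.

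Downstream of the receptors, no adaptor or kinase gene was called and the phosphatase gene Dusp6 fell. Of the 19 adaptor and kinase genes listed, 18 were tested and 0 were called by limma in any comparison. Of all tested genes, 1.11% were called higher and 0.308% lower at 12 h, and 2.15% and 1.52% at 72 h. Between the times 0.765% and 0.734% of all tested genes were. At an unadjusted p below 0.05, 1 of the 18 was higher and 2 lower at 12 h, against 7.96% and 8.33% of all tested genes. At 72 h 2 were higher and 4 lower, against 11.5% and 12.4%, and between the times 1 and 3, against 8.86% and 10%. Among the highest in reads, without regard to length, were Map2k2 and Mapk3, with means over the 8 libraries of 3626 and 2155. Using the adjusted p alone, and named after their values were seen, the adaptor gene Shc1 fell at 12 h (log2 -0.69 ± 0.14, adjusted p = 0.00864) and at 72 h (-0.53, adjusted p = 0.0384), and the adaptor gene Grb2 fell between the times (-0.66, adjusted p = 0.0265). The median log2 change of the 18 genes was -0.05 at 12 h and -0.02 at 72 h.

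Of 14 feedback inhibitor and target genes of the pathway, 10 were tested by limma. By the adjusted p 2 fell at 12 h and 1 at 72 h, against 1.5% and 5.41% of all tested genes. In all 3 comparisons 0 rose. Of all tested genes 2.87% rose at 12 h, 6.08% at 72 h and 2.92% between the times. At an unadjusted p below 0.05, 1 at 72 h and 2 between the times were higher, against 11.5% and 8.86% of all tested genes. At 12 h 2 were lower and at 72 h 2, against 8.33% and 12.4%. Dusp6, a MAP kinase phosphatase gene, had means of 136 ± 8.13 (SD, n = 3) reads in untreated cells, 62.6 ± 5.94 (n = 3) at 12 h and 59.8 ± 6.19 (n = 2) at 72 h. It was called lower at 12 h (log2 -1.11 ± 0.15, adjusted p = 0.000643) and at 72 h (-1.17 ± 0.17, adjusted p = 0.000558). Dusp6 was the 1 gene of the 10 called lower at each time, where 0.308% and 1.52% of all tested genes were. The ETS factor gene Etv4 fell at 12 h by 0.65 ± 0.13 on the log2 scale (adjusted p = 0.00759) and was at -0.34 at 72 h (adjusted p = 0.156). The other 8, among them Spred1 with a mean of 457 reads and Spred3 with 238, passed in no comparison.

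Of 11 genes of co-receptors and carriers, 7 were tested. The neuropilin genes, whose products bind VEGFs, were the highest of the list in reads. Nrp1 rose at both times (0.41 ± 0.10, adjusted p = 0.0436, and 0.60 ± 0.12, adjusted p = 0.00441), and Nrp2 rose at 72 h (0.42 ± 0.11, adjusted p = 0.0289) and from 12 h to 72 h (0.65 ± 0.11, adjusted p = 0.00417). Flrt2, which encodes a membrane protein that can bind FGF receptors, had means of 238, 172 and 97.1 reads, was called lower at 72 h (-1.29 ± 0.16, adjusted p = 0.000135) and fell from 12 h to 72 h (-0.83 ± 0.16, adjusted p = 0.00753). Flrt1, named after its values were seen, rose at 72 h (0.87 ± 0.21, adjusted p = 0.0162). Of 14 hypoxia regulators and targets, 12 were tested by limma and 0 passed at 12 h, where 2.87% of all tested genes rose and 1.5% fell. At an unadjusted p below 0.05, 0 were higher and 2 lower at 12 h, against 7.96% and 8.33% of all tested genes. At 72 h 3 were higher and 1 lower, against 11.5% and 12.4%. Between the times 5 were higher and 0 lower, against 8.86% and 10%. The median log2 change was -0.06 at 12 h, 0.24 at 72 h and 0.28 between the times. The highest in reads were Pgk1, Ldha and Adm. Pdk1 and Hif1a, named after their values were seen, rose at 72 h (0.78 and 0.46, adjusted p = 0.0144 and 0.0164). The part of hypoxia in the values of Vegfa was not tested.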

How the data were processed

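The 8 RNA libraries came from fibroblasts with the genotype label TAF4-/-. The authors deposited normalised reads per Ensembl gene, 1 column per library with decimal commas, and these deposited values were read as given. The sorted values of the 8 columns differed by 0 at every rank, and 100% of the values below 1000 were multiples of 0.125, the step of a mean over 8 whole numbers, so the columns had been quantile normalised and no count model was fitted. The labels describe DpnII tag profiling, whereas the study's methods describe fragmented RNA aligned to mm9 with Tophat and counted with Cufflinks, followed by normalization. Which of them made the table is not settled here. The design text counts 7 samples, but 8 are listed and were used. The authors' group averages and log2 ratios were not used, 1 line without a gene was left out, and 0 columns of single libraries were unused.

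Values were transformed as log2(value + 1), on which scale fold changes of low genes are understated. Genes with a mean of at least 10 were tested in one limma fit of the 3 groups (version 3.58.1, R 4.3.3, variance trend), two-sided, with Benjamini-Hochberg adjustment over 12673 genes, and a shared spread because RA 72 h had 2 libraries. The procedure was checked on simulated data in which the libraries varied independently, so the check does not cover the shared axis of these libraries. The members and lists were chosen with earlier results of these data known. All members are accounted for, those with an adjusted p below 0.05 in any comparison by library. Genes of the pathway lists are named where called or among the 3 highest of their list, and any other is said to be named after its values were seen. Some genes of these lists are not reported here. Coordinates are from the annotation of mm9, and levels per kilobase use the longest spliced protein-coding transcript. Over 12503 tested genes Spearman's rho of level with that length was -0.037. The alternatives were a pseudocount of 10, no filter, each library left out, a replicate block, the side of the shared axis as a term, fits of 2 groups and no fold minimum; subtraction of gene-body reads was chosen after seeing the data.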

Additional observations from a re-analysis of the deposited data

Results flagged for a closer look

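Between RA 12 h and RA 72 h, 5 of the 28 tested genes passed limma's adjusted p. Of these, 3 were higher and 2 lower at 72 h, where 2.92% of all tested genes passed in each direction. As untreated cells were taken at 12 h only, they cancel out of this comparison, which compares RA times and not effects of RA. The log2 difference of 72 h against 12 h was 0.97 for Fgf10, 0.54 for Pdgfb, 0.51 for Pdgfrb, -0.51 for Pdgfra and -0.58 for Vegfa. Of these, Fgf10 alone passed whichever library was left out, with adjusted p up to 0.0136. RA and time in culture cannot be told apart at 72 h.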

How the results depend on the processing

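With the replicate block Pdgfra was called at 72 h (1.01, adjusted p = 0.00125). The number of genes called after 12 h of RA was 3 to 4 under every alternative that kept the fold minimum. Pdgfra was called under each of these, while Fgf18, Pdgfb and Pdgfc each dropped out under some. Without untreated replicate 3, Fgf13 was called at 12 h and Pdgfb was not. At 72 h the number called was 2 to 4 without 1 library. Without a fold minimum, 9, 11 and 5 genes were called at 12 h, at 72 h and between the times. Between the times 1 gene was called with no filter (Fgf8), with the replicate block, or with gene-body reads subtracted, and 0 to 1 without 1 library. Genes passing the adjusted p numbered 7 to 10 at 12 h and 5 to 11 at 72 h without 1 library, and between the times 1 to 6 without 1 library, 1 with the replicate block, 9 with the side of the shared axis as a term, and 3 with gene-body reads subtracted. Deviations of libraries with the same number correlated at r from -0.474 to 0.42. Of the untreated and RA 12 h libraries, 0 of 6 correlated best with their own number. With so few libraries in a group, each taken from its group mean, this cannot settle whether the numbers pair them. Of 588 log2 changes recomputed for the 14 passing genes, 494 kept direction and side of the threshold, 70 no longer passed, 7 newly passed and 17 changed sign, all 17 of them of changes that did not pass. The cause was not tested.

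Changes of sign were, at 12 h, Pdgfrb (-0.06 to 0.09 without 1 library and -0.0016 with gene-body reads subtracted). At 72 h it was Vegfa (-0.06 to 0.23 without 1 library). Between the times they were Fgf18 (-0.14 to 0.04 without 1 library, 0.19 with the replicate block, 0.04 with the side term), Pdgfc (-0.04 to 0.24), Pdgfrl (-0.10 to 0.10 without 1 library, -0.02 with the block, -0.03 with the side term, -0.00015 with gene-body reads subtracted) and Angpt1 (-0.15 to 0.03). The lost depth of the libraries limits what can be said of the 17 genes below the filter.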

Other observations

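Macrophage and epithelial markers stayed low in all groups. The macrophage markers found in the table summed to 42.4 to 80.1 reads in untreated cells, 45.4 to 55.2 at 12 h of RA and 47.1 to 52.2 at 72 h, and the epithelial markers to 20 to 35.6, 19.1 to 31.9 and 27 to 29.9. Of each list 1 gene was tested by limma, and 0 passed or had an unadjusted p below 0.05. Of all tested genes, 14.2% passed in at least 1 comparison.

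Of the 6 fibroblast markers tested by limma, 0 passed at 12 h, where 2.87% of all tested genes rose and 1.5% fell. At an unadjusted p below 0.05, 1 was higher and 1 lower, against 7.96% and 8.33% of all tested genes. At 72 h Col3a1, a fibrillar collagen gene, was called lower (log2 -1.43 ± 0.13, adjusted p = 8.25e-06) and Col1a2 fell (adjusted p = 0.0239). The summed level of the 9 listed was 235512 to 256204 reads in untreated cells, 236532 to 247064 at 12 h and 214995 to 220918 at 72 h. Between untreated cells and 72 h the mean of Col3a1 went from 21176 to 7868 reads and that of Col1a2 from 27243 to 19667. Means of Vim (105234 and 102782), Fn1 (42307 and 40033), Col1a1 (47248 and 46151) and S100a4 (1928 and 1445) differed less in reads. The part of these marker changes in the 72 h values of the growth factor genes was not tested.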
